A study of Homo sapiens with 9 samples.

Results

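The genes described here encode the heat shock chaperones of the cytosol, the nucleus and the mitochondria in SH-Sy5y, an established human neuroblastoma cell line. They were chosen by symbol alone. Genes of the HSPA, HSPB, HSPH, HSPD and HSPE families, HSP90A and the DNAJA, DNAJB and DNAJC families were kept, and HSPA5, DNAJB9, DNAJB11 and DNAJC3, which act in the endoplasmic reticulum (ER), were left out. This gave 61 of the 14943 genes in the count table, and all 61 passed the filter on low counts. The choice by symbol still keeps 8 genes whose proteins reside in the ER (DNAJB12, DNAJB14, DNAJC1, DNAJC10, DNAJC14, DNAJC16, DNAJC18 and HSPA13), so the set is wider than the cytosol and the mitochondria, and these 8 are given as a group of their own. It also keeps 2 readthrough genes and 1 pseudogene.

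Cells were lysed 48 h after transfection, and polyadenylated RNA was sequenced in 3 libraries per group. The Ctrl. group received 40 pmol of a negative control oligonucleotide. The 10 nM group received 20 pmol of a miR-1229-3p mimic together with 20 pmol of that oligonucleotide, and the 20 nM group received 40 pmol of the mimic without it. All 9 libraries come from the same cell line, and RNA of a pair of wells was pooled where possible. Nothing in the sources says whether the replicates were separate cultures, so the p-values measure the spread between these libraries. More mimic always came with less control oligonucleotide, and the effects of both cannot be told apart.

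Chaperones bind unfolded stretches of other proteins and keep them from clumping. In the cytosol a J protein (DNAJ) hands a client to an HSP70 and drives its ATP hydrolysis, an exchange factor of the HSP110 family releases it, and HSP90 takes over clients that are close to their final fold, such as kinases and steroid receptors. Small heat shock proteins hold clients without ATP. Mitochondria have their own HSP70 (HSPA9) with its J proteins, and a folding chamber built of HSPD1 and HSPE1. Heat and misfolded protein raise many of these genes through HSF1, a factor that binds heat shock elements, which are inverted repeats of GAA in promoters.

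Between 17.4 and 28.2 M estimated counts were obtained per library, and the 61 genes took between 0.794% and 0.968% of them. The library of 20 nM replicate 3 stood apart. It lay at 47.4 on the first principal component of all genes, against -17.1 to 7.72 for the others. The median SD between replicates of the 61 genes in log2 CPM (counts scaled to library size) came to 0.073 among the controls, 0.083 at 10 nM and 0.15 for 20 nM. In 20 nM replicate 3, the log2 difference from the other 20 nM libraries correlated with transcript length across 14873 genes (Spearman's rho -0.23) and across the 61 genes (-0.25), while in 20 nM replicate 1 these values were 0.24 and 0.28. The signs were the same, with smaller values, in the other groups. For replicate 1 the values were 0.12 and 0.20 in Ctrl. and 0.14 and 0.20 at 10 nM. For replicate 3 they were -0.07 and -0.09 in Ctrl. and -0.13 and -0.02 at 10 nM. Some results that rest on 20 nM replicate 3 are given below with and without it. At 20 nM, DNAJC12, HSPD1 and the called cochaperones are given only with it. All 8 noradrenergic neuroblastoma markers looked up were in the table. Their summed level was 4225 to 4454 CPM in Ctrl., 4525 to 4697 at 10 nM and 4405 to 4985 at 20 nM. In the model described below, 3 of the 8 were lower at 20 nM and 0 higher, against 6.08% and 7.8% of all genes. The log2 fold change of 3 of the 8 was above 0. Of 8 mesenchymal markers 7 were present (154 to 205 CPM). Of 3 blood markers only CD68 was in the table, at 2.93 to 4.13 CPM, and of 5 glial markers only MBP, at 0.149 to 1.09 CPM.

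Levels in control cells spanned more than 3 orders of magnitude. Per kb of transcript, the scale used to compare genes, HSP90AB1 was highest (634 ± 15.6 CPM per kb, SD, n = 3), followed by HSPA8, the constitutive cytosolic HSP70 (614 ± 91.5), and HSP90AA1, the inducible HSP90 (433 ± 34.6). The ranges of HSP90AB1 (625 to 652) and HSPA8 (521 to 704) overlapped, so their order is not resolved. HSPB1, a small heat shock protein, stood at 345 ± 13.8, HSPD1 at 224 ± 6.16 and HSPE1 at 135 ± 7.25. DNAJA1 was the highest J protein (118 ± 12.4), and the next gene, DNAJB6, stood at 65.0 ± 3.34. The other 53 genes were lower still. The stress-inducible pair HSPA1A and HSPA1B stood at 40.9 ± 8.32 and 42.0 ± 9.74, beside HSPA4, an exchange factor of the HSP110 type (43.9 ± 2.05), and HSPH1 (47.4 ± 3.67), and the ranges of these 4 genes overlapped. Among the mitochondrial genes DNAJC15, a J protein of the import motor, was lowest (1.91 ± 0.0243), and among the ER genes DNAJC14 was highest (23.6 ± 0.559). DNAJC5G was lowest of all at 0.199 ± 0.0106. The value of DNAJC10 (4.79 ± 0.108) rests on a canonical transcript of 20144 bases with a long 3′ untranslated region (UTR), and would be higher over a shorter transcript. The same holds for DNAJC15, whose canonical transcript has 7459 bases, with a 3′ UTR of 6965. In CPM without division by length, DNAJC15 (14.2) lay closer to DNAJC30 (18.2) and DNAJC19 (18.4).

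**Figure D1:**
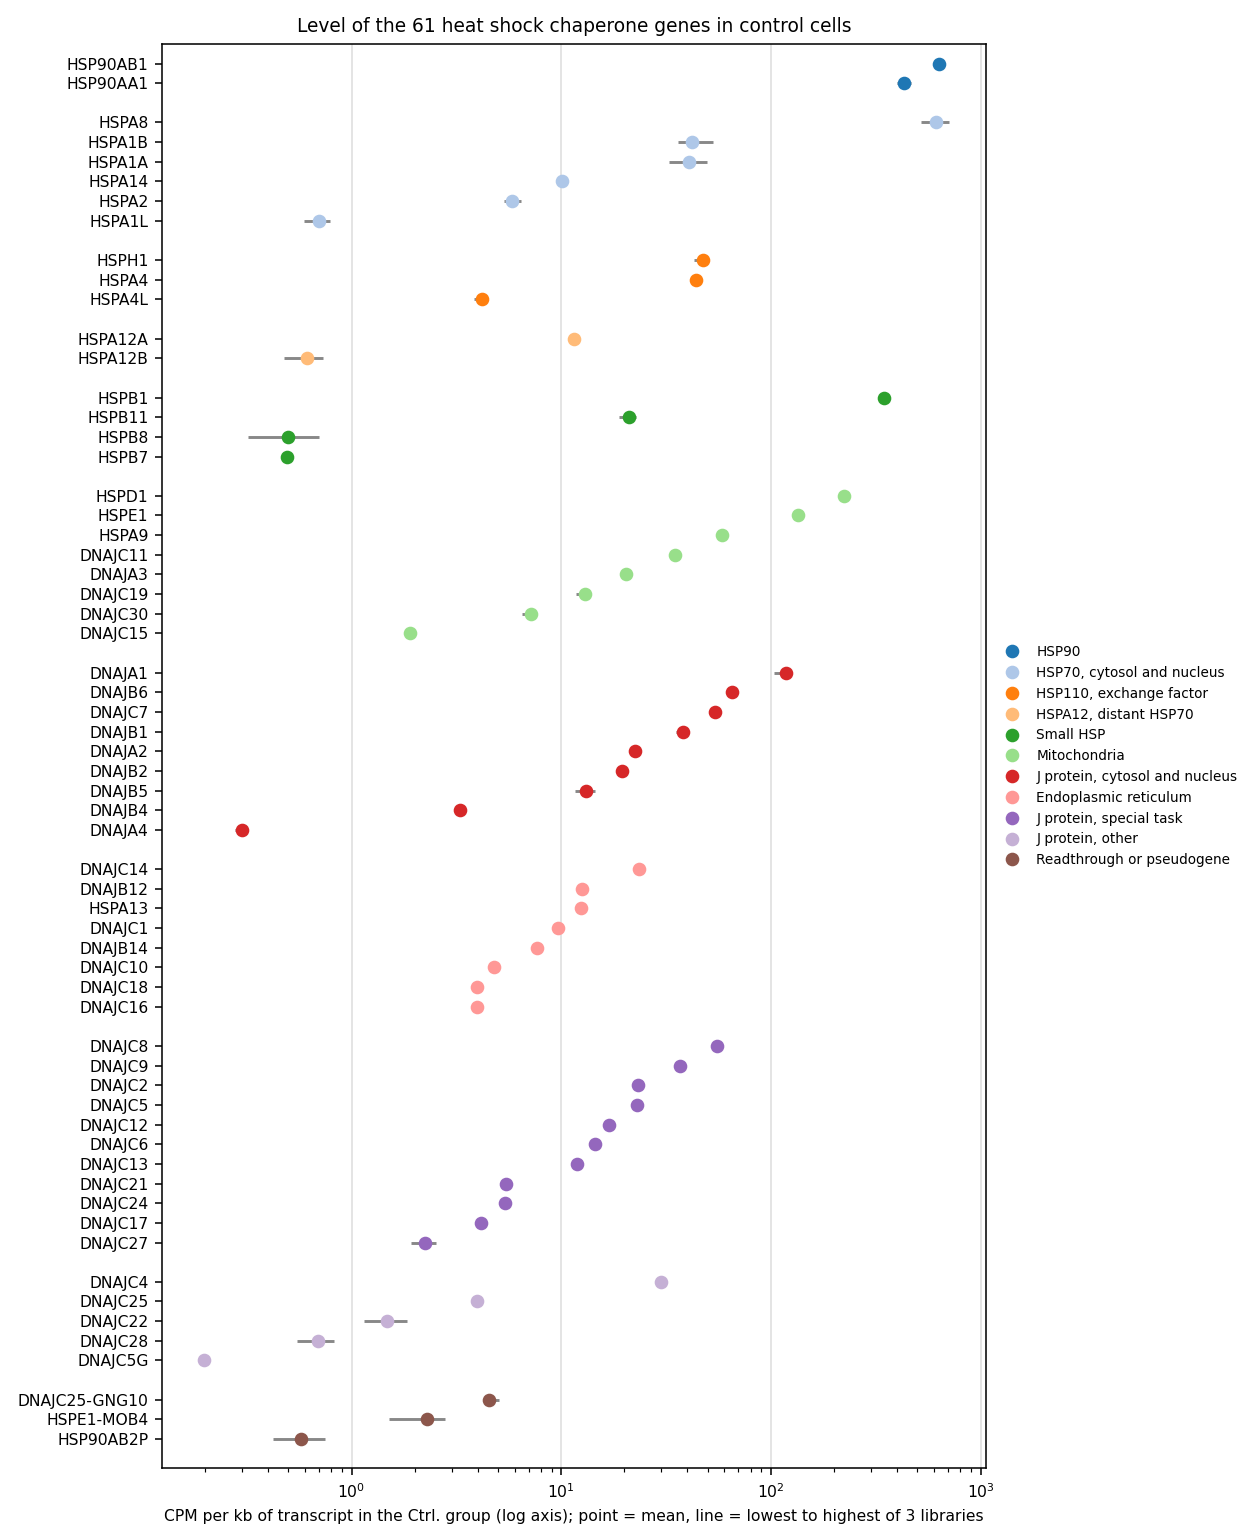
Level of each of the 61 genes in control cells as CPM per kb of canonical transcript on a log axis. Points are means, lines run from the lowest to the highest of the 3 Ctrl. libraries, and colours mark the groups by role. HSP90AB1, HSPA8 and HSP90AA1 lie between 433 and 634, and DNAJC5G is lowest at 0.199.

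To see how the set answered to the mimic, each group was compared with Ctrl. in a model over all genes (edgeR's quasi-likelihood test with a surrogate variable, Benjamini-Hochberg adjusted over 14943 genes, threshold 0.05). Fold changes are on the log2 scale and come from this model, so they can differ from the ratio of the CPM values, which are not corrected for the surrogate variable. In bulk RNA, more cells with a transcript and more transcript per cell cannot be told apart.

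At 10 nM, 0 of the 61 genes passed, against 0.649% of all genes (0.221% higher, 0.428% lower). At an unadjusted p under 0.05 the count was 11 of 61 and 2084 of 14943. DESeq2 with the same surrogate variable also called 0 (1.37% of all genes), and edgeR's likelihood-ratio test called 2 (2.61%). In raw levels, 11 genes had all 10 nM libraries above all Ctrl. libraries (10.1% of all genes did) and 3 had all of them below (9.9%). DNAJA3, DNAJC10, DNAJC18, DNAJC12, HSPB1 and HSPB8 were among these 11. Without 20 nM replicate 3, which enters the shared estimate of the spread, 6 of 61 passed at 10 nM against 8.82% of all genes: DNAJB2, DNAJC10, DNAJC12 and HSPB1 were then higher, and DNAJA1 and HSPA1A lower. That fit estimated 2 surrogate variables in place of 1, and with the number held at 1 the count was 0, against 1.07% of all genes. These 6 were named after their values were seen.

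At 20 nM, 12 of the 61 genes (19.7%) passed, against 13.9% of all genes. Of these 10 were higher (7.8% of all genes were) and 2 were lower (6.08%). The median log2 fold change was 0.04 over the 61 genes and 0.00 over all genes, and 40 of the 61 were above 0. This median is signed, so it does not give the size of single changes. The libraries at 20 nM were all above those of Ctrl. for 12 of the 61 genes (15.2% of all genes) and all below for 3 (13.7%). The fit by concentration, with fold changes per 20 nM, called 14 of 61 (23%), against 17.5% of all genes, 12 of them higher (9.84%) and 2 lower (7.69%). Between 10 nM and 20 nM only DNAJA3 passed, and it was higher (1.91% of all genes were higher, 0.883% lower, 2.79% in all). Without 20 nM replicate 3 the number at 20 nM was 22 of 61 (18 higher, 4 lower) against 29.2% of all genes, or 12 against 17.8% with 1 surrogate variable as in the full fit, and without 20 nM replicate 1 it was 7, all higher, against 8.84%. DNAJA3, DNAJC10, DNAJC18 and HSPB1 passed at 20 nM in the model as given and in each of its 23 alternatives. These 4 genes also passed in the dose trend in each of its 22 alternatives. Some alternatives repeat the model as given and could not differ from it. They are the fit without a filter, since the filter on low counts removed 0 genes, and the fit with 1 surrogate variable at 20 nM or 2 in the trend. This holds wherever alternatives are counted.

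**Figure D2:**
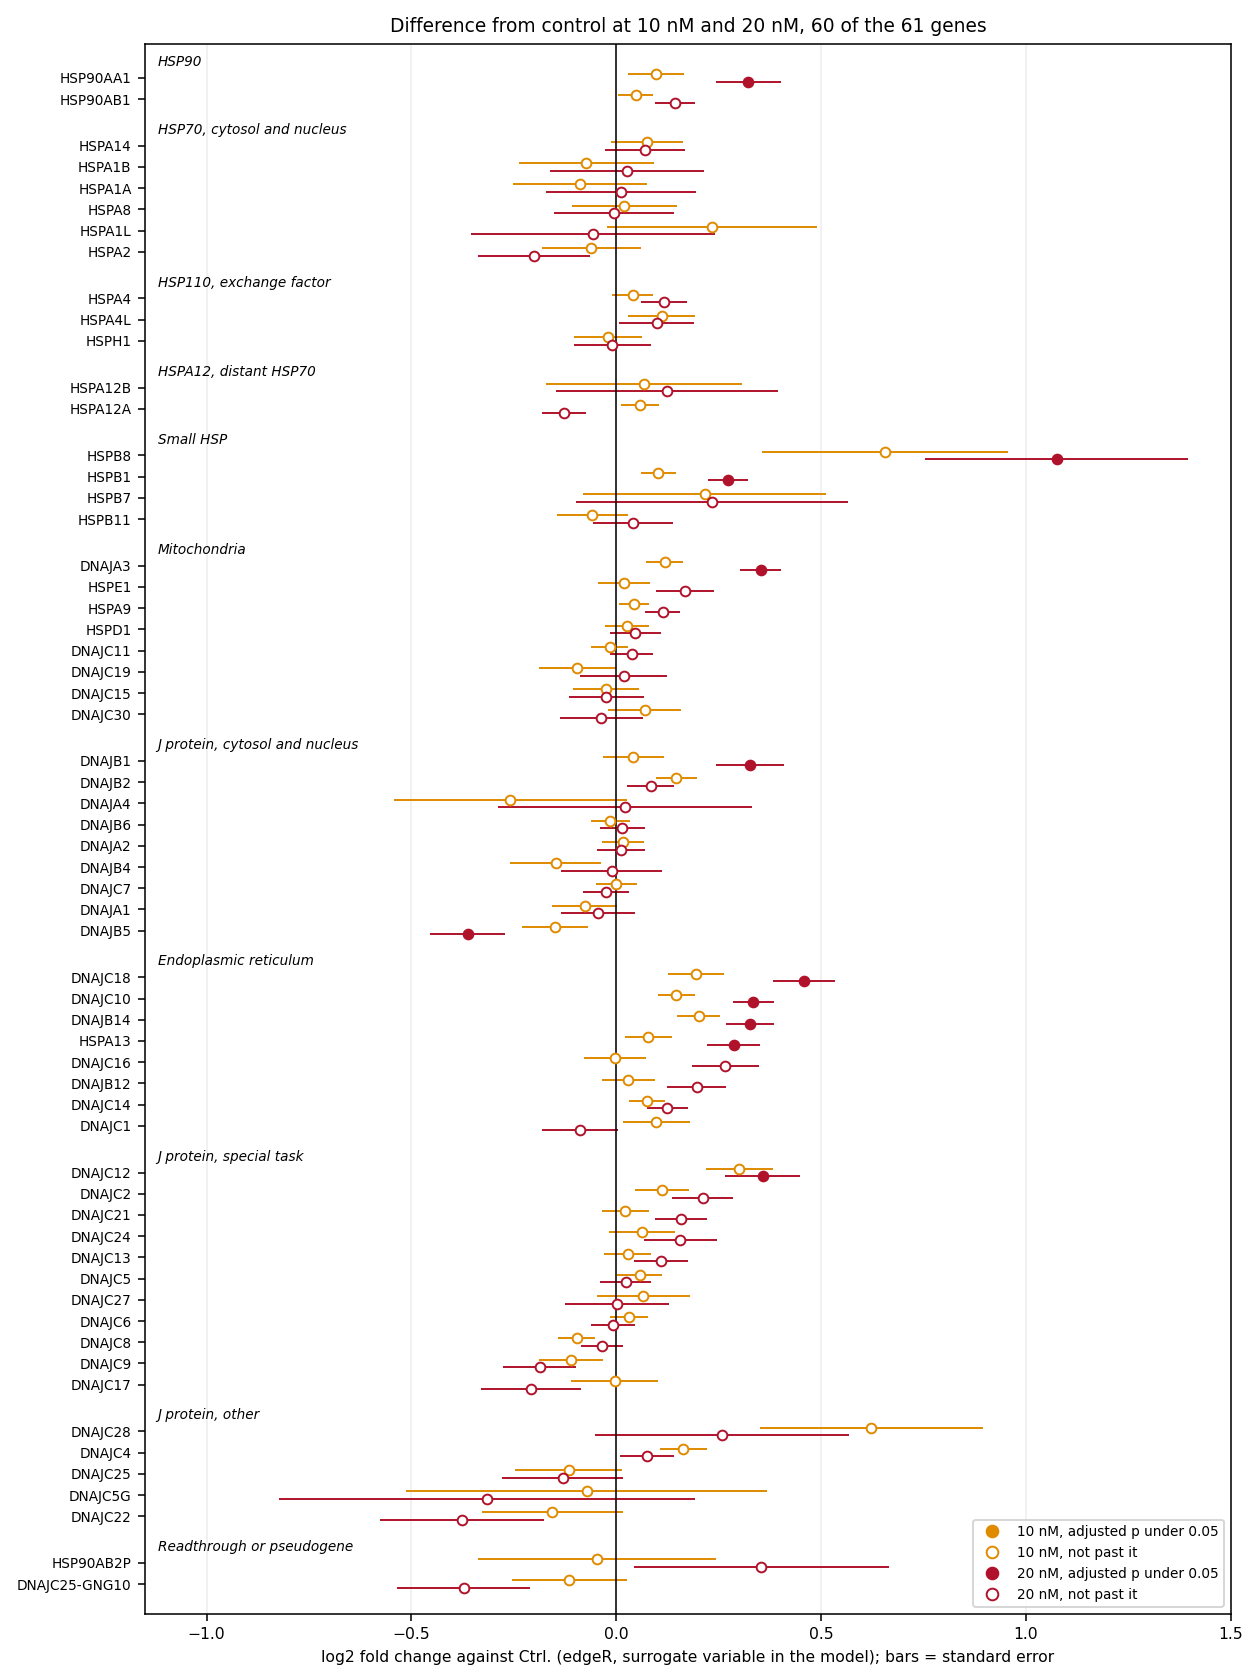
Log2 fold change against Ctrl. at 10 nM (orange) and 20 nM (red) for 60 of the 61 genes, grouped by role, with the standard error as bars. Filled points passed an adjusted p of 0.05. Filled points appear only at 20 nM. HSPE1-MOB4, at -2.36 for 20 nM, lies off the axis and is left out.

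The HSP90 pair of the cytosol lay higher with the mimic. HSP90AA1 stood at 1285, 1508 and 1399 CPM in Ctrl., 1366, 1616 and 1496 at 10 nM and 1699, 1836 and 1688 at 20 nM. Even the lowest 20 nM library was above the highest control library, and 10 nM lay between them, overlapping Ctrl. alone. At 20 nM HSP90AA1 rose by 0.32 ± 0.08 (SE), adjusted p = 0.0169, and per 20 nM in the trend by 0.30 ± 0.07 (SE), adjusted p = 0.00895. It lost the call at 20 nM without Ctrl. replicate 1 (0.27, adjusted p = 0.0504) or 20 nM replicate 2 (0.25, adjusted p = 0.135). HSP90AB1, the constitutive form, stood at 1598, 1667 and 1598 CPM in Ctrl., 1653, 1765 and 1657 at 10 nM and 1795, 1803 and 1985 at 20 nM. All of its 20 nM libraries were above the controls, and its log2 fold change was 0.14 ± 0.05 (SE), adjusted p = 0.0694 at 20 nM and 0.16 ± 0.04 (SE), adjusted p = 0.0247 in the trend, where it passed. A second fit blocked by the replicate number and left out the surrogate variable. In this blocked fit HSP90AB1 passed at 20 nM too (0.20, adjusted p = 0.0407), as it did in 6 of 23 alternatives in all. Its call in the trend was lost in 4 of 22, which were no surrogate variable and leaving out Ctrl. replicate 1, Ctrl. replicate 3 or 20 nM replicate 2 (adjusted p up to 0.119). Summed over the pair, the level was 3018 ± 147 CPM in Ctrl. (SD, n = 3), against 3184 ± 183 at 10 nM and 3602 ± 94.6 at 20 nM.

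None of the 6 cytosolic HSP70 genes passed in any of the 4 comparisons, and their median log2 fold change at 20 nM was 0.00. HSPA8 stood at 1179, 1593 and 1396 CPM in Ctrl., 1187, 1599 and 1466 at 10 nM and 1221, 1645 and 1385 at 20 nM. All 3 groups covered nearly the same range, and libraries of the same replicate number lay close together. Its log2 fold change at 20 nM was -0.01 ± 0.15 (SE), adjusted p = 0.987. HSPA1A and HSPA1B encode nearly the same protein and share most of their sequence, so reads may have been split between them, and their sum is the safer value. In Ctrl. the sum was 171, 252 and 188 CPM, against 163, 244 and 196 at 10 nM and 175, 260.3 and 312 at 20 nM. Of the mimic libraries, 10 nM replicate 1 lay below the controls and 20 nM replicates 2 and 3 lay above them. Within each replicate number the 20 nM library was the highest of the 3, by far the most in number 3. Fitted as 1 gene with the surrogate variable, the pair differed at 20 nM by a log2 fold change of 0.01, adjusted p = 0.979. The sum was not fitted with the replicate number. Singly, HSPA1A gave 0.01 ± 0.18 (SE), adjusted p = 0.977 and HSPA1B 0.03 ± 0.19 (SE), adjusted p = 0.949. HSPA2, HSPA1L and HSPA14 ranged from -0.20 to 0.07 at 20 nM.

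The exchange factors did not pass either. HSPH1, which is itself induced by heat, stood at 227, 262 and 258 CPM in Ctrl., 218, 259 and 255 at 10 nM and 233, 269.7 and 223 at 20 nM, with a log2 fold change at 20 nM of -0.01 ± 0.09 (SE), adjusted p = 0.963. For HSPA4 it was 0.12 ± 0.06 (SE), adjusted p = 0.201 and for HSPA4L 0.10 ± 0.09 (SE), adjusted p = 0.532. Nor did the distant relatives HSPA12A (-0.13 ± 0.05 (SE), adjusted p = 0.136) and HSPA12B (0.12 ± 0.27 (SE), adjusted p = 0.822) at 20 nM.

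Among the small heat shock proteins, 2 of 4 rose at 20 nM. HSPB1, which holds unfolded clients and binds actin, stood at 257, 279 and 267 CPM in Ctrl., 281, 303 and 309 at 10 nM and 314, 352 and 452 at 20 nM. Each group lay above the one before without overlap. HSPB1 rose by 0.27 ± 0.05 (SE), adjusted p = 0.00277 at 20 nM and by 0.34 ± 0.05 (SE), adjusted p = 0.000297 in the trend, while 10 nM alone gave 0.10 ± 0.04 (SE), adjusted p = 0.303. Its highest value was in 20 nM replicate 3, and without that library the change at 20 nM was 0.30, adjusted p = 5.85e-07. HSPB8, a partner of BAG3 in the removal of damaged filamin, was scarce: 0.883, 0.595 and 1.303 CPM in Ctrl., 1.60, 1.58 and 1.31 at 10 nM and 1.93, 2.11 and 2.03 at 20 nM. It nevertheless had all 20 nM libraries above all controls and rose by 1.08 ± 0.32 (SE), adjusted p = 0.0426 at 20 nM, a call that 8 of 23 alternatives did not give, among them leaving out any 1 of Ctrl. replicates 1 and 2, 10 nM replicates 2 and 3 and 20 nM replicates 1 and 2. HSPB7 (0.23 ± 0.33 (SE), adjusted p = 0.706) and HSPB11, a ciliary transport protein (0.04 ± 0.10 (SE), adjusted p = 0.838), did not pass.

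The 9 cytosolic and nuclear J proteins went different ways, with 1 higher, 1 lower and 7 not past the threshold at 20 nM, and a median of 0.01. DNAJB1 is the heat-inducible partner of HSPA8 and HSPA1A. It stood at 86.5, 90.7 and 79.1 CPM in Ctrl., 85.4, 95.8 and 84.5 at 10 nM and 98.2, 118 and 115 at 20 nM. All 20 nM libraries were above the other 6. DNAJB1 rose by 0.33 ± 0.08 (SE), adjusted p = 0.0205 at 20 nM, while its log2 fold change at 10 nM was 0.04 ± 0.07 (SE), adjusted p = 0.844. The call at 20 nM was lost without 20 nM replicate 2 (0.22, adjusted p = 0.186) or Ctrl. replicate 3 (0.26, adjusted p = 0.0877). DNAJB5 stood at 30.8, 34.5 and 38.6 CPM in Ctrl., 29.6, 31.1 and 35.6 at 10 nM and 26.4, 29.5 and 33.6 at 20 nM. Its groups overlapped, but within each replicate number the 20 nM library was the lowest of the 3. DNAJB5 fell at 20 nM (-0.36 ± 0.09 (SE), adjusted p = 0.0207), and the call was lost without 20 nM replicate 1 (-0.28, adjusted p = 0.139) or Ctrl. replicate 3 (-0.29, adjusted p = 0.0727) and with no surrogate variable (-0.22, adjusted p = 0.264). DNAJA1, the most abundant of these cofactors, gave -0.04 ± 0.09 (SE), adjusted p = 0.804 at 20 nM, and DNAJB6, which keeps polyglutamine proteins soluble, gave 0.01 ± 0.05 (SE), adjusted p = 0.902.

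In the mitochondrial group DNAJA3 alone passed at 20 nM, out of 8 genes. It encodes the J protein that serves HSPA9 in the matrix. DNAJA3 stood at 54.3, 56.2 and 54.6 CPM in Ctrl., 60.5, 58.3 and 62.4 at 10 nM and 68.8, 72.9 and 79.2 at 20 nM. Every 10 nM library was above every control, and every 20 nM library was above every 10 nM library. The log2 fold change was 0.12 ± 0.05 (SE), adjusted p = 0.282 at 10 nM, 0.35 ± 0.05 (SE), adjusted p = 0.000769 at 20 nM and 0.23 ± 0.05 (SE), adjusted p = 0.0224 from 10 to 20 nM. Its partner HSPA9, at 263, 256 and 252 CPM in Ctrl., 265, 263 and 259 at 10 nM and 279.9, 271 and 253 at 20 nM, gave 0.11 ± 0.04 (SE), adjusted p = 0.0959 at 20 nM. The call of DNAJA3 between 10 and 20 nM was lost in 6 of 23 alternatives (adjusted p up to 0.132). These were no surrogate variable, the blocked fit and leaving out 10 nM replicate 2, 10 nM replicate 3, 20 nM replicate 1 or 20 nM replicate 2.

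HSPD1 and HSPE1 build the mitochondrial chaperonin and lie head to head on chromosome 2, transcribed away from each other. HSPD1 stood at 498, 517 and 490.4 CPM in Ctrl., 478, 518 and 489 at 10 nM and 501, 525 and 374 at 20 nM, with 20 nM replicate 3 far below the other 8 libraries. HSPE1 stood at 70.7, 78.7 and 75.7 CPM in Ctrl., 74.1, 85.3 and 75.7 at 10 nM and 79.7, 93.2 and 115 at 20 nM, with the same library far above the rest. At 20 nM HSPD1 gave 0.05 ± 0.06 (SE), adjusted p = 0.682 and HSPE1 0.17 ± 0.07 (SE), adjusted p = 0.139. The trend called HSPE1 (0.22 ± 0.07 (SE), adjusted p = 0.0413), though not without 20 nM replicate 3 (0.18, adjusted p = 0.084). In all 7 of 22 alternatives lost that call, among them leaving out Ctrl. replicate 1, Ctrl. replicate 3 or 20 nM replicate 2 (adjusted p up to 0.265), while the blocked fit called HSPE1 at 20 nM (0.34, adjusted p = 0.0445). The canonical transcript of HSPD1 has 2245 bases and that of HSPE1 has 557. The part of transcript length in the opposite values of that library was not tested. DNAJC11, DNAJC15, DNAJC19 and DNAJC30 ranged from -0.04 to 0.04 at 20 nM, and none passed.

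The ER-resident genes were the group with the most calls in number: 4 of 8 rose at 20 nM, against 7.8% of all genes. By share they did not stand alone, since 2 of 4 small heat shock proteins and 1 of 2 HSP90 genes rose. The median log2 fold change of the 8 was 0.28, and 7 of 8 were above 0. DNAJC10, a reductase that opens disulphide bonds before degradation, stood at 95.2, 95.2 and 99 CPM in Ctrl., 104, 105 and 107.3 at 10 nM and 119, 124 and 106 at 20 nM. Its groups did not overlap between Ctrl. and 10 nM or between Ctrl. and 20 nM. DNAJC10 rose by 0.33 ± 0.05 (SE), adjusted p = 0.000998 at 20 nM. DNAJC18, a membrane-bound J protein, stood at 19.1, 21 and 20.4 CPM in Ctrl., 23.8, 22.4 and 22.6 at 10 nM and 28.5, 26.5 and 26.3 at 20 nM, with each group above the one before. DNAJC18 rose by 0.46 ± 0.08 (SE), adjusted p = 0.00175, the largest change among the 4. DNAJB14, a membrane J protein that turns to the cytosol, stood at 47.2, 43.7 and 45.6 CPM in Ctrl., 51.6, 51.8 and 46.7 at 10 nM and 58.8, 51.8 and 36 at 20 nM, and HSPA13, an HSP70-like protein of the ER, at 48.5, 50.1 and 48.7 CPM in Ctrl., 48.4, 50.7 and 51.5 at 10 nM and 61, 57.1 and 42.4 at 20 nM. In both genes 20 nM replicate 3 was below every control, while the other 20 nM libraries were above them. The model gave 0.33 ± 0.06 (SE), adjusted p = 0.00313 for DNAJB14 and 0.29 ± 0.06 (SE), adjusted p = 0.011 for HSPA13. The blocked fit gave 0.08, adjusted p = 0.67 and 0.11, adjusted p = 0.497, so neither passed there. Without that library they were 0.28, adjusted p = 0.000639 and 0.27, adjusted p = 0.000626. Without 20 nM replicate 1 both calls were lost (0.17, adjusted p = 0.174 and 0.18, adjusted p = 0.182), as they were with no surrogate variable (0.10, adjusted p = 0.685 and 0.12, adjusted p = 0.525), and that of HSPA13 was also lost without 20 nM replicate 2 (0.27, adjusted p = 0.0735). DNAJC16 lay at the threshold (0.27 ± 0.08 (SE), adjusted p = 0.05) and did not pass. DNAJB12, at 37.1, 36.8 and 37.4 CPM in Ctrl., 37.5, 36.8 and 40.4 at 10 nM and 45.6, 39.6 and 46.6 at 20 nM, gave 0.20 ± 0.07 (SE), adjusted p = 0.0921 at 20 nM. It passed in the trend (0.23 ± 0.07 (SE), adjusted p = 0.0252) and, in the blocked fit, at 20 nM (0.24, adjusted p = 0.0409). In the trend DNAJB12 held in 10 of 22 alternatives, and leaving out any library but 10 nM replicate 3 lost it (adjusted p up to 0.126). DNAJC1 (-0.09 ± 0.09 (SE), adjusted p = 0.586) and DNAJC14 (0.12 ± 0.05 (SE), adjusted p = 0.122) did not pass at 20 nM.

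**Figure D3:**
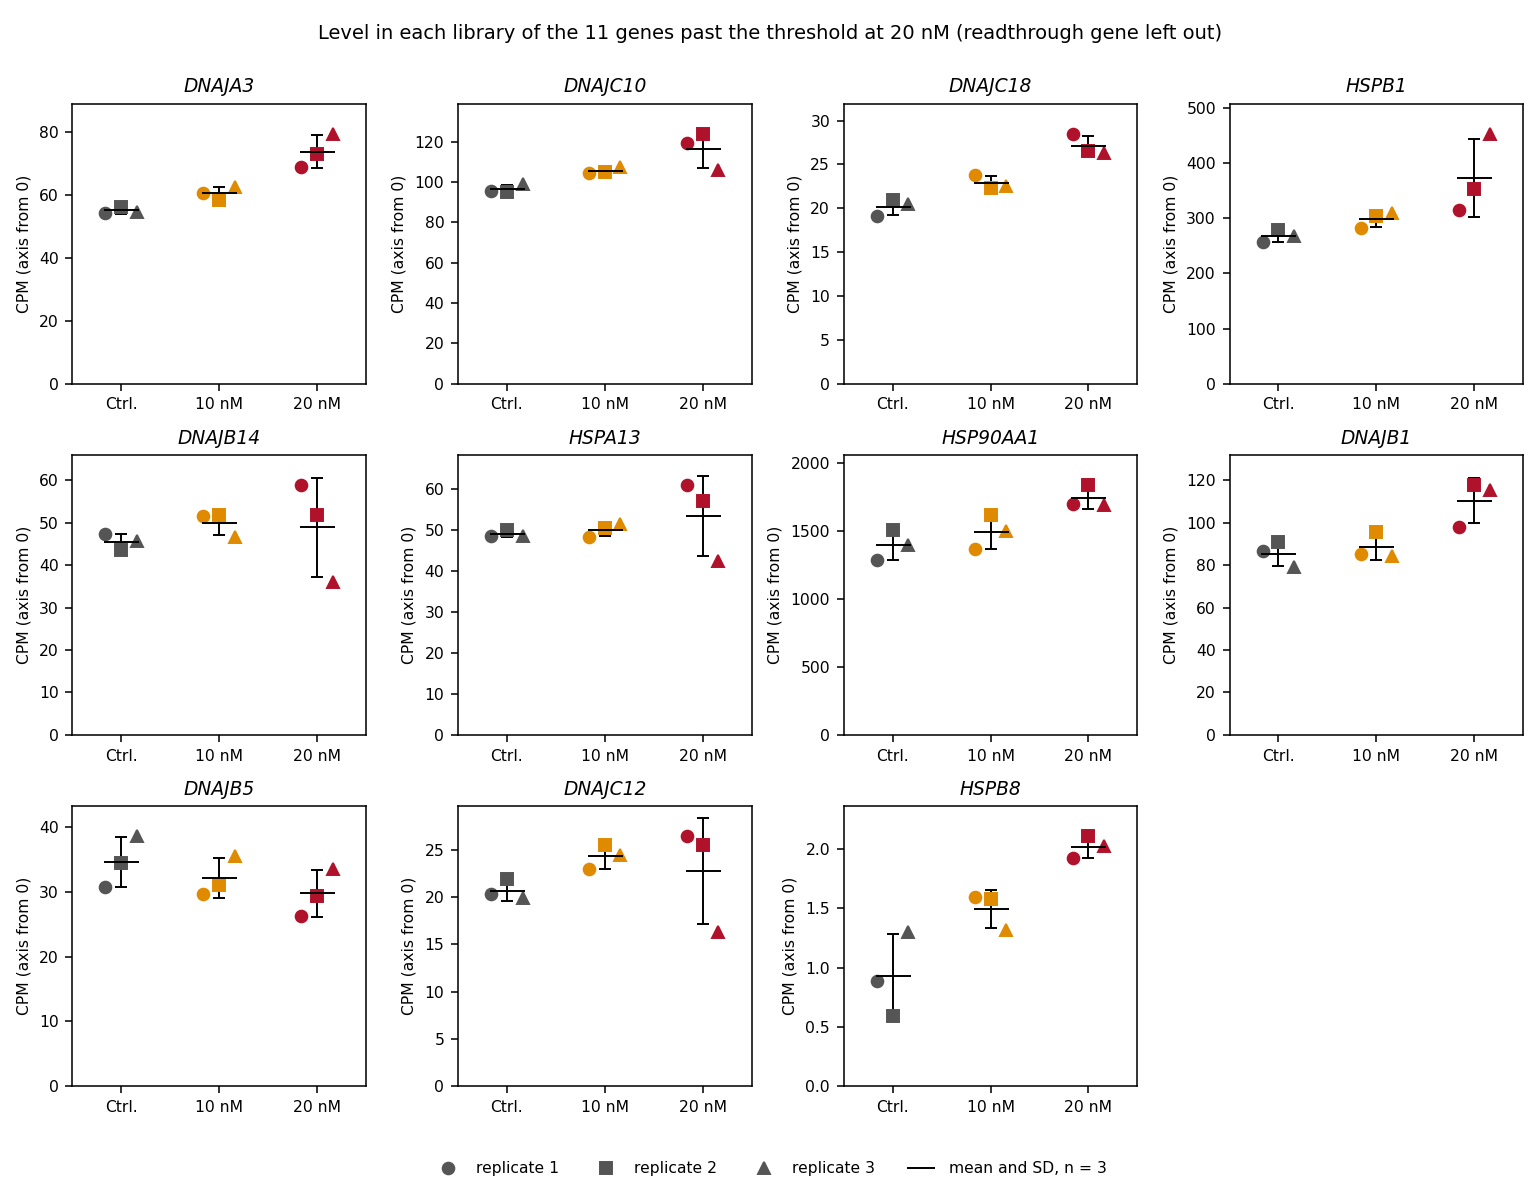
CPM in each of the 9 libraries for 11 of the 12 genes past the threshold at 20 nM, with the mean and SD of each group (n = 3) as a dash and bars and the replicate number as the symbol. DNAJA3, DNAJC18, HSPB1 and HSPB8 climb from Ctrl. to 20 nM, and in DNAJB14, HSPA13 and DNAJC12 the triangle of 20 nM replicate 3 lies below the controls.

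Of the 11 J proteins with a special task, DNAJC12 rose at 20 nM. It assists the folding of the aromatic amino acid hydroxylases, among them tyrosine hydroxylase, the enzyme that starts catecholamine synthesis. DNAJC12 stood at 20.3, 21.9 and 19.9 CPM in Ctrl., 22.9, 25.5 and 24.5 at 10 nM and 26.4, 25.5 and 16.2 at 20 nM, again with 20 nM replicate 3 below the controls. The model gave 0.36 ± 0.09 (SE), adjusted p = 0.0214 at 20 nM, and the blocked fit gave 0.12, adjusted p = 0.582. The call was also lost with no surrogate variable (0.14, adjusted p = 0.611) and without 20 nM replicate 1 (0.26, adjusted p = 0.169), 20 nM replicate 2 (0.30, adjusted p = 0.149) or Ctrl. replicate 3 (0.35, adjusted p = 0.0575), and DNAJC12 did not pass in the trend (adjusted p = 0.0532). DNAJC5, which keeps the release machinery of synaptic vesicles folded, stood at 114, 127 and 122.4 CPM in Ctrl., 123, 121.9 and 141 at 10 nM and 123, 129 and 148 at 20 nM, with 0.02 ± 0.06 (SE), adjusted p = 0.859 at 20 nM. DNAJC6 and DNAJC13, which act on clathrin coats and endosomes, gave -0.01 and 0.11 and did not pass.

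HSPE1-MOB4, a readthrough transcript that begins in HSPE1 and ends in MOB4, passed as lower at 20 nM (-2.36 ± 0.66 (SE), adjusted p = 0.0328). It stood at 1.34, 2.49 and 2.31 CPM in Ctrl., 0.976, 1.24 and 1.14 at 10 nM and 0, 0.989 and 1.99 at 20 nM, so 20 nM replicate 1 held none of it and replicate 3 lay inside the control range. It shares sequence with HSPE1, the estimated counts could move between both, and 15 of 23 alternatives gave the call, which was lost without 20 nM replicate 1, Ctrl. replicate 2 or Ctrl. replicate 3. In the blocked fit it was -1.22, adjusted p = 0.209. The sum of HSPE1 and HSPE1-MOB4 was 72.1, 81.2 and 78.02 CPM in the controls. It was 75.1, 86.5 and 76.8 at 10 nM, then 79.7, 94.1 and 117 at 20 nM. DNAJC25 and DNAJC25-GNG10 share sequence in the same way, and their sum ran from 12.9 to 16.4 CPM over the 9 libraries.

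Levels of several genes differed more between replicate numbers than between groups. Of these, HSPA8 and, read singly, HSPA1A were called for the number in the full set of libraries. The replicate numbers come from the sample labels, which do not say what they mark. HSPA8 was lowest in replicate 1 and highest in replicate 2 in all 3 groups. In log2 CPM, 97.7% of its sum of squares lay between replicate numbers and 0.562% between groups, while for DNAJA3 these shares were 3.76% and 91.0%. They were 83.5% and 12.5% for HSPA1A, 89.5% and 10.3% for DNAJA1 and 69.6% and 2.51% for HSPH1. The medians were 23.8% and 24.8% over the 61 genes and 27.1% and 30.05% over all genes. A quasi-likelihood test of the replicate number beside the group called 2 of 61 genes, against 0.515% of all genes. HSPA8 was higher in number 2 than in number 1 by a log2 fold change of 0.43 and in number 3 by 0.24 (adjusted p = 0.0139). For HSPA1A these differences were 0.60 and 0.46 (adjusted p = 0.0158). HSPA1B, which may share reads with HSPA1A, did not pass (0.55 and 0.39, adjusted p = 0.289). Of its sum of squares, 41.5% lay between replicate numbers and 20.4% between groups. The sum of the pair was not tested for the number. In the same quasi-likelihood test DNAJA1 and HSPH1 did not pass (adjusted p = 0.0738 and 0.252). Leaving out Ctrl. replicate 3 kept the calls of HSPA8 and HSPA1A. Leaving out 20 nM replicate 2 kept that of HSPA1A. Neither call held without any 1 of the other 6 libraries apart from 20 nM replicate 3. Without 20 nM replicate 3 the count was 13 of 61, against 13% of all genes. It then held HSPA8, HSPA1A, HSPA1B, HSPA2, DNAJA1, DNAJB1, HSPH1, HSP90AA1, HSPB1, HSPD1 and HSPE1 beside DNAJB5 and HSPA4L, and all 13 were higher in number 2 than in number 1, by 0.08 to 0.60. This comparison was added after the levels were seen. In every group the difference of replicate 1 from the other libraries correlated with transcript length, as given above. The part of length in the differences between numbers was not tested.

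**Figure D4:**
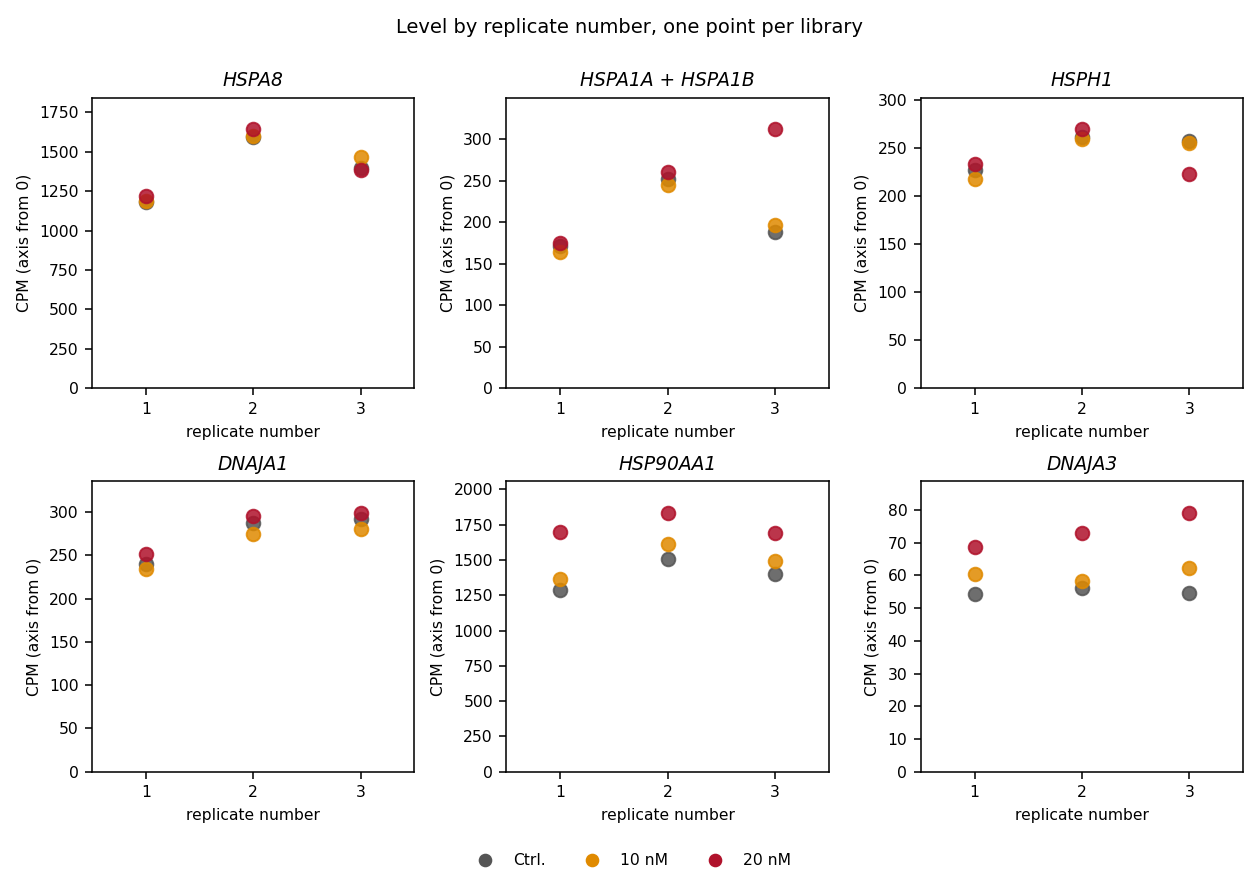
CPM by replicate number, with 1 point for each library coloured by group. HSPA8 is lowest in number 1 and highest in number 2 in every group. DNAJA1 is lowest in number 1 in every group, and HSPH1 in Ctrl. and at 10 nM. HSP90AA1 and DNAJA3 are ordered by mimic concentration within every number. In the sum of HSPA1A and HSPA1B, 20 nM replicate 3 is highest at 312.

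Heat shock elements were searched for in promoters. RefSeq promoter windows (GRCh38.p14, 250 bases before to 50 after a start site) were at hand for 54 of the 61 genes. An element of 2 units was searched as GAANNTTC or TTCNNGAA, which both strands share, and one of 3 units as GAANNTTCNNGAA or TTCNNGAANNTTC, so that each 3-unit match also holds 2-unit matches. At least 1 window with 2 units was found for 18 of 54 genes (33.3%), against 13.7% of the 11209 genes of the table with a window, and with 3 units for 6 of 54 (11.1%), against 0.526%. The 6 were DNAJA1, DNAJB6, HSP90AA1, HSP90AB1, HSPA8 and HSPD1. A match describes the letters and is not a site of binding. The stretches of 7 genes, chosen because they span the heat-inducible and the constitutive forms discussed above, follow 5′ to 3′ with the element in capitals:
HSPA8, chr11:123062336-123062384, minus strand: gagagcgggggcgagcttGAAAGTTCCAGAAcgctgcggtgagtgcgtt
HSPA1A, chr6:31815419-31815462, plus strand: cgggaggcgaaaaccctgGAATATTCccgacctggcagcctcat
HSP90AA1, chr14:102087102-102087150, minus strand: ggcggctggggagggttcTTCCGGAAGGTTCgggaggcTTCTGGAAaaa
HSP90AB1, chr6:44247760-44247808, plus strand: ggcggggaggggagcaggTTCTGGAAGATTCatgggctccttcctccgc
HSPB1, chr7:76302473-76302516, plus strand: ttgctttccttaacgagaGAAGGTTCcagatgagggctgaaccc
DNAJB1, chr19:14518449-14518492, minus strand: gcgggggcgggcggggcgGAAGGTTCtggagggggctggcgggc
HSPD1, chr2:197500055-197500090, minus strand: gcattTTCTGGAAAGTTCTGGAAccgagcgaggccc

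Genes with an element differed among themselves. At 20 nM 4 of them were higher (DNAJB1, HSP90AA1, HSPB1 and HSPB8) and 0 lower by the quasi-likelihood test, against 8.58% higher and 7.02% lower among all 1539 genes with such a window. Of the 36 genes with windows but no element, 6 were higher (DNAJA3, DNAJB14, DNAJC10, DNAJC12, DNAJC18 and HSPA13) and 2 lower, against 8.22% and 6.18% of all 9670 such genes. Of the 6 with 3 units, only HSP90AA1 passed at 20 nM, and among all 59 genes with 3 units 6.78% were higher and 1.69% lower. Both genes called for the replicate number, HSPA8 and HSPA1A, hold an element of 2 units, while over all genes the number called 0.455% of those with an element and 0.476% of those without.

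To relate the set to the microRNA itself, 3′ UTRs were searched for matches to its seed (bases 2 to 8 from the 5′ end), the stretch by which a microRNA finds the messenger RNAs that it lowers. The mature sequence is shown with the seed in capitals (RefSeq, chr5:179798278-179798300, minus strand, GRCh38.p14):
miR-1229-3p: cUCUCACCacugcccucccacag
The words searched were GTGAGA (6-mer), GTGAGAA and GGTGAGA (7-mers) and GGTGAGAA (8-mer), on the transcript strand, where each longer word holds the 6-mer. In the longest annotated UTR per gene (GENCODE 44), 17 of 60 genes with a UTR held a 7-mer or an 8-mer (28.3%), against 22.6% of 13778 genes. In the canonical UTR it was 16 of 60 (26.7%), against 21.0%. DNAJC22 and DNAJC27 held an 8-mer. The site that gives each of these 2 genes its rank, and a site of 3 genes with a 7-mer that passed at 20 nM, are shown with the match in capitals, because they set the strongest matches beside the genes that rose:
DNAJC22, chr12:49351955-49351962, plus strand: gaaaacaatggGGTGAGAAaaggttgtggt
DNAJC27, chr2:24946530-24946537, minus strand: tgccacaggcaGGTGAGAAaggcagggcca
DNAJB1, chr19:14515635-14515641, minus strand: ccctggccaggGGTGAGAggcagaccagc
DNAJC18, chr5:139411274-139411280, minus strand: cacgatcggcaGTGAGAAaaggaggatga
DNAJB14, chr4:99898973-99898979, minus strand: aattttctgcaGTGAGAAatgacagactg
The coordinates (GRCh38) are those of the capitals.

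Of the 17 genes with such a match, 4 were higher at 20 nM (DNAJB1, DNAJB14, DNAJC10 and DNAJC18) and 0 lower by the quasi-likelihood test. Among all 3114 genes with one, 8.06% were higher and 10.5% lower, and among the 8493 genes without any match 8.12% and 4.59%. DNAJC22 is a J protein with several membrane passes. It stood at 6.36, 8.16 and 5.10 CPM in Ctrl., 6.17, 6.08 and 4.69 at 10 nM and 5.06, 4.52 and 4.01 at 20 nM, with every 20 nM library below every control. Its log2 fold change was -0.38 ± 0.20 (SE), adjusted p = 0.242 at 20 nM and -0.44 ± 0.18 (SE), adjusted p = 0.113 in the trend. In the blocked fit DNAJC22 passed in both, at -0.51, adjusted p = 0.0422 at 20 nM and -0.51, adjusted p = 0.0293 in the trend, and without 20 nM replicate 3 it passed at 20 nM (-0.45, adjusted p = 0.0225), though not with the number of surrogate variables held (-0.42, adjusted p = 0.0748). DNAJC27, the other gene with an 8-mer, stood at 10.9, 9.35 and 12.2 CPM in Ctrl., 10.9, 11.4 and 10.9 at 10 nM and 11.5, 10.1 and 7.70 at 20 nM, and its log2 fold change at 20 nM was 0.00 ± 0.13 (SE), adjusted p = 0.994. DNAJA3 held a 6-mer and no longer match. DNAJB5 and HSPE1-MOB4, the genes that passed as lower, held none.

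Other genes of protein folding were counted by list. None of the 7 regulators of the heat shock response that were measured passed in any of the 4 comparisons. HSF1, the main heat shock factor, gave 0.08 ± 0.05 (SE), adjusted p = 0.304 at 20 nM, and HSF2 gave 0.07 ± 0.07 (SE), adjusted p = 0.578. EEF1A1, at 0.08 ± 0.06 (SE), adjusted p = 0.455, and HSBP1L1, at 0.19 ± 0.16 (SE), adjusted p = 0.51, completed the 4 with the smallest adjusted p. Of 25 cochaperones, 2 were higher and 1 was lower at 20 nM, against 7.8% and 6.08% of all genes. STUB1, a ubiquitin ligase bound to HSP70 and HSP90, rose by 0.18 ± 0.05 (SE), adjusted p = 0.0335, and NUDC, an HSP90 cofactor, by 0.15 ± 0.04 (SE), adjusted p = 0.0421, while BAG1, an HSP70 exchange factor, fell (-0.22 ± 0.05 (SE), adjusted p = 0.0181). BAG3, which pairs with HSPB8 and is a target of HSF1, gave 0.30 ± 0.10 (SE), adjusted p = 0.076. In all 3 of the called cochaperones 20 nM replicate 3 was the highest library: BAG1 stood at 62.1, 61.8 and 66.5 CPM in Ctrl., 57.1, 58.3 and 65.9 at 10 nM and 54.1, 58.3 and 78.2 at 20 nM, so its levels overlapped and that library lay opposite to the call. The blocked fit gave -0.01, adjusted p = 0.936 for BAG1, and it called 4 cochaperones as higher and 1 as lower. At 20 nM that fit called 13.6% of all genes in either direction. In the dose trend of the main model 3 cochaperones were higher and 1 lower, against 9.84% and 7.69% of all genes.

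Of 14 subunits of the cytosolic chaperonin and of prefoldin, which deliver and fold actin and tubulin, 2 were higher at 20 nM. The share of all genes was 7.8%, and 12 of the 14 were above 0. The prefoldin subunits VBP1 (0.39 ± 0.06 (SE), adjusted p = 0.00101) and PFDN6 (0.33 ± 0.10 (SE), adjusted p = 0.0385) passed, and CCT2 (0.15 ± 0.05 (SE), adjusted p = 0.059) and PFDN2 (0.16 ± 0.06 (SE), adjusted p = 0.0827) did not, though the blocked fit called PFDN2 (0.31, adjusted p = 0.0428). In the trend 4 of the 14 were higher and 0 lower, against 9.84% and 7.69% of all genes. Against 7.8% of all genes, 2 of 14 genes of mitochondrial protein quality control were higher at 20 nM. They were ISCU, the scaffold of iron-sulphur cluster assembly (0.34 ± 0.06 (SE), adjusted p = 0.00306), and TRAP1, the mitochondrial HSP90 (0.15 ± 0.05 (SE), adjusted p = 0.0458), while AFG3L2, a membrane protease (0.17 ± 0.05 (SE), adjusted p = 0.0614), and HSCB, a J protein of cluster assembly (-0.43 ± 0.15 (SE), adjusted p = 0.0727), did not pass. The blocked fit called AFG3L2 at 20 nM (0.22, adjusted p = 0.034). In the trend of the main model 4 of these 14 genes were higher and 1 lower. AFG3L2 (0.20, adjusted p = 0.0135) and HSCB (-0.46, adjusted p = 0.0222) passed there.

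Of 13 ER chaperones outside the set, 6 were higher at 20 nM and 9 in the trend, against 7.8% and 9.84% of all genes. All 13 had a log2 fold change above 0 in both comparisons. The lectin chaperone CANX rose by 0.36 ± 0.05 (SE), adjusted p = 0.000521, the disulphide isomerase PDIA4 by 0.34 ± 0.06 (SE), adjusted p = 0.00173, SIL1, an exchange factor, by 0.54 ± 0.10 (SE), adjusted p = 0.00353 and PDIA3 by 0.27 ± 0.05 (SE), adjusted p = 0.0043. HSP90B1, the HSP90 of the ER, rose by 0.27 ± 0.05 (SE), adjusted p = 0.00435. HSPA5, the HSP70 of the ER, stood at 338, 429 and 455 CPM in Ctrl., 398, 490.0 and 560.2 at 10 nM and 461, 571 and 625 at 20 nM, and its log2 fold change was 0.26 ± 0.12 (SE), adjusted p = 0.181 at 20 nM and 0.28 ± 0.10 (SE), adjusted p = 0.0569 in the trend. It was highest at 20 nM within each replicate number, and the replicate number itself passed for HSPA5 (adjusted p = 0.0136). In the blocked fit HSPA5 rose by 0.44 ± 0.05 (SE), adjusted p = 0.00137 at 20 nM, and it passed in the trend (0.44, adjusted p = 0.000754). That fit called 9 of the 13 as higher at 20 nM and 9 in the trend, but at 20 nM it lost HSP90B1 (0.20, adjusted p = 0.0697) and PDIA3 (0.13, adjusted p = 0.34). That ER genes were higher in these libraries was known when the lists were chosen, so the counts of the 8 ER-resident genes and of these 13 are not independent evidence of the direction.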

How the data were processed

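Polyadenylated RNA of 9 libraries was sequenced. The authors mapped reads with Salmon onto GRCh38.p13 (version not given in the sources used here), summed them to genes and removed low genes. The deposited table holds estimated counts, 88.8% of them not whole, with totals of 17.4 to 28.2 M, and strand use is not stated. The authors' tables of comparisons (log2 fold changes, p-values) and of corrected log2 values were not used. Groups and replicate numbers came from the sample titles. Members and gene lists were chosen with earlier results of these data known.

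Counts were rounded and analysed in R 4.3.3 with edgeR 4.0.16 (TMM scaling, filterByExpr, which removed 0 genes, and the quasi-likelihood test over all 9 libraries, Benjamini-Hochberg adjusted, threshold 0.05). Surrogate variables came from sva 3.50.0 on log2 CPM (prior count 2), 1 in the group model and 2 in the concentration model. DESeq2 1.42.0 was an alternative. The tests were tried on simulated counts. Standard errors are the log2 fold change over the square root of the F-statistic.

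Genes named singly were 15 core members, up to 10 called members per comparison by adjusted p, called members with a 7-mer or 8-mer seed match or otherwise up to 8 with an 8-mer, HSF1, HSF2, HSPA5, HSP90B1, up to 4 genes per list by adjusted p at 20 nM, and extremes of level. Others named were chosen after their values were seen. Deviations of same-numbered libraries from their group means correlated at 0.107 to 0.185 between Ctrl. and either mimic group. Between 10 and 20 nM they correlated at 0.0288 to 0.176. For libraries of different numbers the values ran from -0.134 to -0.0306 with Ctrl. and from -0.17 to 0.0321 between 10 and 20 nM. Deviations within a group sum to 0, so positive values for same numbers push those for different numbers below 0. The numbers from the titles were therefore taken to mark paired libraries in comparisons with Ctrl. The main model held no term for the number, so its standard errors and adjusted p-values are not paired. The number entered in the blocked fit, the test of the replicate number and comparisons within a number. No pair of libraries agreed within counting noise. Positions and UTRs came from GENCODE 44 (GRCh38.p14), matched by identifier for 14105 genes and by symbol for 768, with 70 unmatched. Other scalings, filters, numbers of surrogate variables, the replicate block and leaving out each library were tried, and the replicate-number comparison and its alternatives were added after the data were seen. Figures used matplotlib 3.10.9.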

Additional observations from a re-analysis of the deposited data

How the results depend on the processing

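Of the 61 genes, the main model called 0 at 10 nM, 12 at 20 nM, 1 from 10 to 20 nM and 14 in the dose trend. Across the 23 alternatives (22 in the trend), which include fits that repeat the main model, no called gene changed direction. Percentages in brackets are the share of all genes called in the same fit. At 10 nM the count was 2 with the likelihood-ratio test (2.61%). It was 6 with 3 surrogate variables (6.11%) or with only the groups compared in the fit (7.26%). At 20 nM it was 7 without a surrogate variable (6.38%) and 21 with 3 (26.7%). From 10 to 20 nM it was 3 with DESeq2 (3.18%) or with 2 surrogate variables (3.33%). It was also 3 without 20 nM replicate 3 at a held number of them (3.09%, chosen with earlier results known). In that comparison it was 8 with the likelihood-ratio test (5.07%), 12 with 3 surrogate variables (9.38%) and 0 without any (0.448%). In the trend it was 7 without a surrogate variable. With the replicate block in place of surrogate variables the counts were 0 at 10 nM (0.0201%) and 12 at 20 nM (13.6%). They were 0 from 10 to 20 nM (0.83%, DNAJA3: adjusted p = 0.0825) and 12 in the trend. In the trend the blocked fit lost DNAJB14 (adjusted p = 0.658), HSPA13 (0.459) and HSPE1-MOB4 (0.156). Its other changed calls among the 61 genes stand in the report, and it changed no further call of theirs. For the genes of the pathway lists the block was added after the data were seen.

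Leaving out 1 library at a time, the counts ran from 0 to 6 at 10 nM, 7 to 22 at 20 nM, 0 to 12 from 10 to 20 nM and 7 to 15 in the trend. The highest counts came without 20 nM replicate 3 in the first 3 comparisons, where the fit estimated 2 surrogate variables. That fit called 8.82%, 29.2% and 10% of all genes. With the number held at 1 the counts were 0, 12 and 3, against 1.07%, 17.8% and 3.09% of all genes. At 20 nM the lowest came without 20 nM replicate 1 (8.84% of all genes). From 10 to 20 nM the count was 0 without 10 nM replicate 2 (1.72%), 10 nM replicate 3 (1.55%) or 20 nM replicate 2 (1.17%). The trend fell to 9 without Ctrl. replicate 1 or Ctrl. replicate 3 and to 7 without 20 nM replicate 2. The count for the replicate number was 2 in the main fit (0.515% of all genes) and 4 with the likelihood-ratio test (4.66%). Leaving out 1 library, it ran from 0 to 13, the highest without 20 nM replicate 3 (13%). The cause of the other changes was not tested. HSPB8, HSPE1-MOB4 and other genes near 1 CPM rest on few reads, and a gene not called is not shown to be the same between groups.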
